A study of Mus musculus with 12 samples.

Results

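The B cell receptor and B cell identity genes described here were Cd79a, Cd79b, Cd22, Pax5, Ebf1, Blnk, Ighm, Jchain and Vpreb1, 9 of the 19938 mouse genes with a value. They were chosen by symbol: a probe set counted for a gene where the platform annotation gave it that single symbol, and the brightest probe set by mean over the arrays stood for the gene. All 9 genes were measured, and Ighm was the one with several such probe sets. On the mouse assembly GRCm38.p6, Cd79a and Cd22 lie on chromosome 7, Cd79b and Ebf1 on chromosome 11, Pax5 on chromosome 4, Jchain on chromosome 5, Ighm on chromosome 12, Vpreb1 on chromosome 16 and Blnk on chromosome 19. The study hybridised 12 single-colour arrays, 1 per RNA sample, with 3 arrays in each of 4 groups, and compared cultured mast cells of mice with and without the atypical chemokine receptor ACKR2. The groups were wild type C57BL/6 and ACKR2-/- cells, the latter also labelled with the strain C57BL/6, each after 2 and after 10 weeks of culture. All groups came from marrow of female mice aged 4 to 6 weeks and were cultured in interleukin 3 (10 ng/ml) and stem cell factor (12.5 ng/ml), growth factors of mast cells. Per the labels' protocols, mast cells of some 2-week cultures were purified on a column with an antibody to CD117, the protein of Kit, and the arrays concerned are not named. The arrays of a group are called biological replicates with no animal or culture named, so p-values measure only the spread between these samples.

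The B cell antigen receptor is a membrane immunoglobulin held by a pair of signalling chains, the products of Cd79a and Cd79b. Ighm encodes the heavy chain of IgM. In B cell precursors, before a light chain is made, the product of Vpreb1 forms part of a surrogate light chain that pairs with the mu chain. Blnk encodes the adaptor that links the activated receptor to downstream enzymes, and Cd22 a sialic acid-binding inhibitory co-receptor. Ebf1 and Pax5 are the transcription factors that set up and keep B lineage identity, and Jchain encodes the chain that joins IgM or IgA into polymers in antibody-secreting cells. Mast cells carry a different immunoglobulin receptor, the high-affinity IgE receptor, whose alpha chain is encoded by Fcer1a.

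Before any comparison, 4 arrays went against their labels. Wild type 2-week array 3 and the ACKR2-deficient 2-week arrays 1, 2 and 3 had Fcer1a at 4.83, 5.25, 5.21 and 5.47 log2 units, against 13.74 to 14.14 on the other 8 arrays. Over 11 measured mast cell genes their mean log2 signal was 6.62 to 6.78, against 11.98 to 12.77 on the other arrays. Xist, which is expressed from the inactive X chromosome of female cells, was at 5.77 to 6.23 against 13.00 to 13.37, and the Y-linked gene Eif2s3y was at 10.57 to 11.22 against 4.42 to 4.61, although the donors are described as female. Groups are therefore named below as labelled, and values of these 4 arrays are given one by one. In each 2-week comparison, genotype or week cannot be told apart from whatever sets these arrays apart. The array medians lay between 7.76 and 7.90 log2 units, after a normalization that equalises the arrays.

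On the 4 arrays that went against their labels, all of the 9 genes but Vpreb1 were higher than on the other 8 arrays. Over those 8 arrays the range was 2.04 log2 units for Blnk, 1.12 for Cd79b and 0.44 to 0.87 for the other 7 genes. Cd79a had log2 signals of 5.50, 5.47 and 10.25 on the wild type 2-week arrays 1, 2 and 3, and of 10.58, 10.41 and 12.80 on the ACKR2-deficient ones. Its values at 10 weeks were 5.12, 5.67 and 5.83 in wild type and 5.71, 5.99 and 5.59 in ACKR2-deficient samples. Wild type array 3 thus lay with the ACKR2-deficient arrays, and all 8 remaining arrays lay between 5.12 and 5.99. Cd79b, whose product pairs with that of Cd79a, had 8.29, 8.88 and 11.07 in wild type and 11.43, 11.31 and 12.83 in ACKR2-deficient samples at 2 weeks. At 10 weeks Cd79b had 8.43, 8.95 and 8.68 in wild type against 8.38, 8.30 and 7.82. At 2 weeks the highest wild type array lay below the lowest ACKR2-deficient array for both genes, by 0.15 log2 units for Cd79a and by 0.23 for Cd79b.

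**Figure D1:**
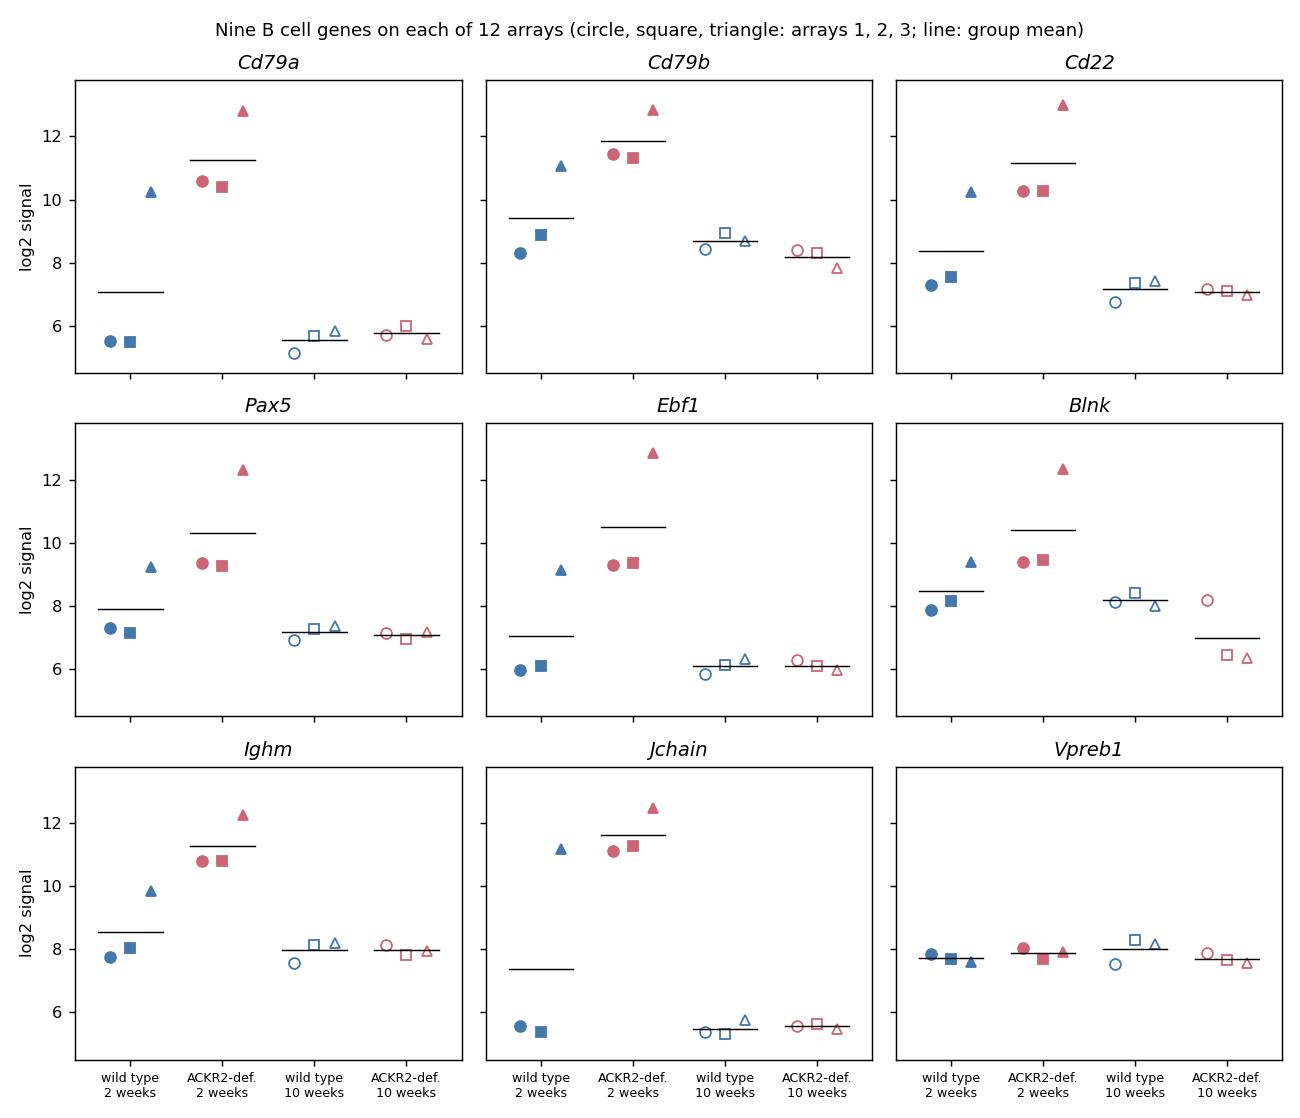
Log2 signal of each of the 9 genes (y axis) on every array, by group (x axis), with circles, squares and triangles for arrays 1, 2 and 3 and a line at the group mean. Wild type 2-week array 3 lies with the ACKR2-deficient 2-week arrays and ACKR2-deficient 2-week array 3 is highest for 8 of the 9 genes, while Vpreb1 stays between 7.54 and 8.31 on all arrays.

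Ighm had 7.77, 8.04 and 9.86 on the wild type 2-week arrays and 10.80, 10.82 and 12.26 on the ACKR2-deficient ones. At 10 weeks it had 7.58, 8.13 and 8.19 in wild type and 8.15, 7.82 and 7.94 in ACKR2-deficient samples. Wild type array 3 lay 0.94 log2 units below the lowest ACKR2-deficient array, the widest such gap among the 9 genes. Jchain had 5.57, 5.37 and 11.19 in wild type and 11.12, 11.28 and 12.47 in ACKR2-deficient samples at 2 weeks, and 5.32 to 5.77 on the 6 arrays at 10 weeks. For Jchain the labelled 2-week groups overlapped, because wild type array 3 lay above ACKR2-deficient array 1.

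Among the signalling genes, Cd22 had 7.28, 7.55 and 10.24 in wild type and 10.26, 10.27 and 12.98 in ACKR2-deficient samples at 2 weeks, and 6.76 to 7.42 at 10 weeks. Wild type array 3 and ACKR2-deficient arrays 1 and 2 differed for Cd22 by 0.029 log2 units at most. Blnk, the adaptor gene, had 7.86, 8.17 and 9.39 in wild type and 9.39, 9.47 and 12.36 in ACKR2-deficient samples at 2 weeks. At 10 weeks Blnk had 8.14, 8.40 and 8.01 in wild type and 8.20, 6.43 and 6.36 in ACKR2-deficient samples, so that ACKR2-deficient arrays 2 and 3 were the lowest of all 12. Over 12 measured monocyte and macrophage genes these same arrays also had the lowest mean log2 signal, 7.89 and 8.08, against 10.07 on ACKR2-deficient 10-week array 1 and 9.14 to 10.62 on the remaining arrays. The part of those cells in the Blnk values was not tested.

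The lineage factors followed the same order of arrays. Pax5 had 7.32, 7.13 and 9.23 in wild type and 9.37, 9.26 and 12.33 in ACKR2-deficient samples at 2 weeks, and 6.92 to 7.37 at 10 weeks. Ebf1 had 5.96, 6.09 and 9.13 in wild type and 9.29, 9.37 and 12.85 in ACKR2-deficient samples at 2 weeks, and 5.85 to 6.32 at 10 weeks. For both factors the labelled 2-week groups did not overlap, by margins of 0.04 log2 units for Pax5 and 0.16 for Ebf1. Vpreb1, the precursor gene, had 7.85, 7.70 and 7.62 in wild type and 8.05, 7.70 and 7.91 in ACKR2-deficient samples at 2 weeks. Its values at 10 weeks were 7.54, 8.31 and 8.17 in wild type and 7.88, 7.65 and 7.56 in ACKR2-deficient samples, and all groups overlapped.

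ACKR2-deficient 2-week array 3 stood above every other array for 8 of the 9 genes. The step to the next highest array was 3.48 log2 units for Ebf1, 2.96 for Pax5, 2.88 for Blnk, 2.71 for Cd22 and 2.21 for Cd79a. It was 1.45 for Ighm, 1.39 for Cd79b and 1.20 for Jchain. For Ighm the step depended on the probe set, with 1.83 and 2.21 by its other probe sets, 10402864 and 10403069. Of all genes, 1.2% were highest on this array by at least 1 log2 unit. Wild type array 3 and ACKR2-deficient arrays 1 and 2 differed from each other by 0.029 log2 units for Cd22 up to 0.36 for Cd79b, 0.43 for Vpreb1 and 0.96 for Ighm. The same 4 arrays were the highest of the 12 by at least 1 log2 unit for 7 of the 9 genes, all but Blnk and Vpreb1, and for 2.11% of all genes. In bulk samples, more cells of a type cannot be told apart from more RNA per cell.

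The array that was highest for the B cell genes was not the highest for T cell genes. Over 13 measured T and NK cell genes the mean log2 signal was 11.49 on wild type 2-week array 3, 11.43 on ACKR2-deficient arrays 1 and 2 and 8.58 on ACKR2-deficient array 3, against 6.80 to 7.34 on the other arrays. Cd3e, a chain of the T cell receptor complex, had 13.15, 13.05 and 13.13 on the first of these and 9.08 on ACKR2-deficient array 3, which was above all 8 remaining arrays. Over 7 plasmacytoid dendritic cell genes, a cell type that can also express Jchain, the same 4 arrays had means of 9.61, 9.70, 9.62 and 9.85, against 7.63 to 8.26. For 3 of the 7 genes these were the highest arrays by at least 1 log2 unit. Only Tcf4 and Ly6d were highest on ACKR2-deficient array 3 by that step, and Ly6d was among the genes nearest in profile to Cd22. The part of these cell types in the values of the 9 genes was not tested.

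The genes whose profiles over the 12 arrays, each centred on its own mean, were most like those of the 9 genes are given with the root mean square difference. They were Ms4a1 (0.312 log2 units), the CD20 gene, for Cd79a, Fcrl1 (0.167) for Cd22, Blk (0.158), a kinase of the B cell receptor pathway, for Pax5, and Cr2 (0.250), complement receptor 2, for Ebf1. Heg1 (0.308) lay nearest to Cd79b, Siglecg (0.308), an inhibitory receptor of B cells, to Ighm and Mef2c (0.375), a transcription factor, to Blnk. For Jchain the nearest was the Y-linked gene Eif2s3y (0.281), followed by Ifi214 (0.304), an interferon-inducible gene. Vpreb1 lay nearest to Cyb561 (0.0945), whose values ranged only from 6.97 to 7.75, so that likeness to Vpreb1 was likeness to a nearly level profile.

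The sequences before the start sites of 3 of the genes are shown: Cd79a and Blnk, which were among those high on the same 4 arrays, and Vpreb1, which was level. They are the 250 bases before the start, on the gene's strand, from RefSeq on GRCm38.p6, in which 7 of the 9 genes were matched: Cd79a at chr7:24897247-24897496 (plus strand), Blnk at chr19:40994222-40994471 (minus strand) and Vpreb1 at chr16:16869256-16869505 (minus strand). Capitals mark matches, on either strand, to an octamer (ATTTGCAT), an E-box (CAGGTG) or an ETS motif (AGGAAGT), and no match overlapped another.
Cd79a: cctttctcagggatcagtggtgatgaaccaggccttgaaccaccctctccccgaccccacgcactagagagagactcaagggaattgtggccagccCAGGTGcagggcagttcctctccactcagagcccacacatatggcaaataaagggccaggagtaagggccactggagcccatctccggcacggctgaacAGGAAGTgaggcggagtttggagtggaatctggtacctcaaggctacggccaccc
Blnk: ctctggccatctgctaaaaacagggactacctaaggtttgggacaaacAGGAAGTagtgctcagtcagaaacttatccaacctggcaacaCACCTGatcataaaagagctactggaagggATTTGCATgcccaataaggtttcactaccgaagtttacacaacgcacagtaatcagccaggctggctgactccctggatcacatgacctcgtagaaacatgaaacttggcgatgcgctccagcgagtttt
Vpreb1: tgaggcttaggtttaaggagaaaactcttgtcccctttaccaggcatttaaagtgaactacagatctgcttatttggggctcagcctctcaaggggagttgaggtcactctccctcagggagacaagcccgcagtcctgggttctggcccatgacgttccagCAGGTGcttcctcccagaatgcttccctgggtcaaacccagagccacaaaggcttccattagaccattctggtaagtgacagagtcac
The octamer was in 1 of the 7 matched genes, Blnk, 130 to 123 bases before the start, and in 1.6% of all promoters of the same length. The E-box was in Cd79a, Cd22, Vpreb1 and Blnk, 4 of 7, and in 17.2% of all promoters, and the ETS motif in Cd79a and Blnk, 2 of 7, against 7.69%. An EBF motif (CCCNNGGG) was in Cd22 alone among the 7, and in 11.8% of all promoters. The window of Cd22, chr7:30879029-30879278, lies inside the gene (30865404 to 30880342), so its matches are not before the outermost start. The 7 genes gave 8 windows, as Ebf1 had more than 1, so counts by gene stand beside shares by promoter. Pax5, Ebf1 and Jchain, also high on the 4 arrays, held none of these motifs. Their sequences and that of Cd22 are not shown. Vpreb1, with level signals, thus held the same E-box as Cd79a. A match is a description of letters and not a bound site.

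The comparison that passed the test was week of culture within the ACKR2-deficient label. By limma with Benjamini-Hochberg adjustment over all genes, 8 of the 9 genes fell from 2 to 10 weeks, with 6.33% of all genes lower and 16.8% called in either direction. The log2 differences (± SE, 3 arrays a group) were -6.06 ± 1.22 for Jchain, -5.50 ± 1.11 for Cd79a, -4.40 ± 0.98 for Ebf1 and -4.09 ± 0.83 for Cd22. They were -3.69 ± 0.63 for Cd79b, -3.41 ± 0.78 for Blnk, -3.32 ± 0.53 for Ighm and -3.23 ± 0.76 for Pax5. At an unadjusted p under 0.05 limma counted the same 8 genes and 30.2% of all. The limma adjusted p-values of these 8 genes lay between 0.0137 and 0.0190. Vpreb1 had a difference of -0.19 ± 0.19 and a limma adjusted p of 0.574. For the same 8 genes every 10-week array lay below every 2-week array, as for 17.7% of all genes, and the median over the 9 genes was -3.69 against 0.06 over all genes. All 3 arrays on the 2-week side were among those that went against their labels. Without ACKR2-deficient 10-week array 2 or array 3 none of the 9 genes and 0 genes of all passed, with limma adjusted p-values of 0.0555 to 0.0712 for the 8 genes and log2 differences of -6.09 to -3.09.

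**Figure D2:**
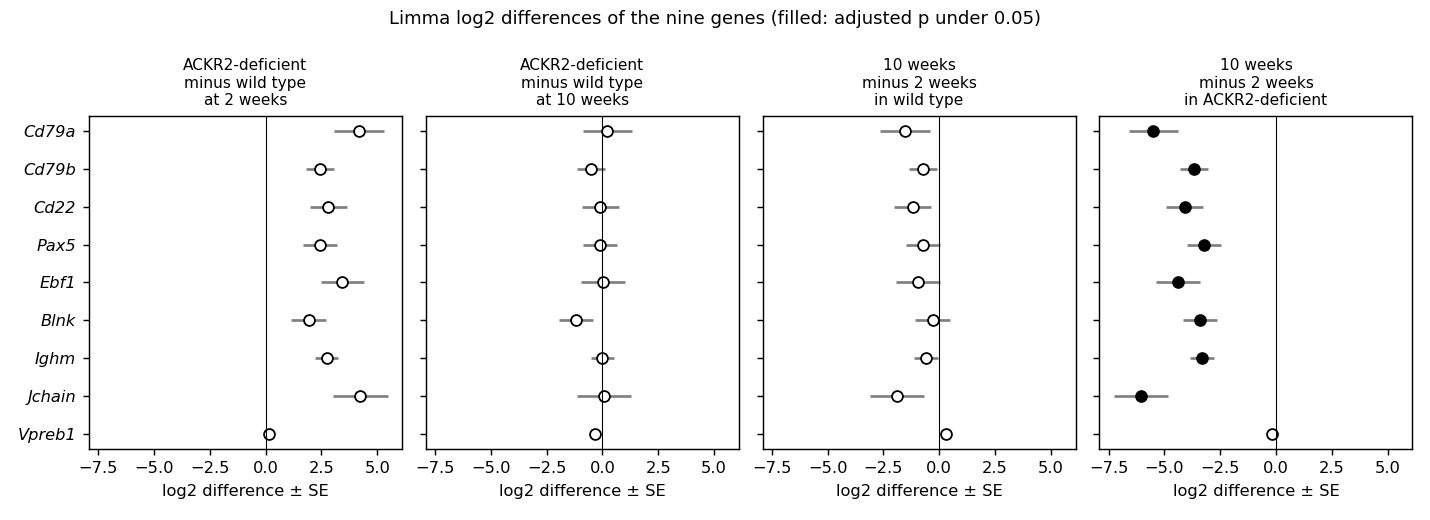
Limma log2 differences of the 9 genes (x axis, with bars of 1 standard error on each side) in 4 comparisons, filled where the adjusted p was under 0.05. Filled points appear only for 10 minus 2 weeks in the ACKR2-deficient label, for all genes but Vpreb1.

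Between the genotypes at 2 weeks, the mean of the ACKR2-deficient label was above that of wild type for all 9 genes, with none passing the limma test after Benjamini-Hochberg adjustment, as for 0.0% of all genes. The differences were 4.25 ± 1.22 log2 units for Jchain, 4.19 ± 1.11 for Cd79a, 3.44 ± 0.98 for Ebf1, 2.82 ± 0.83 for Cd22, 2.74 ± 0.53 for Ighm, 2.44 ± 0.63 for Cd79b, 2.43 ± 0.76 for Pax5 and 1.93 ± 0.78 for Blnk. The limma adjusted p was 0.225 for these genes, apart from 0.247 for Blnk, and Vpreb1 had 0.17 ± 0.19 with 0.728. At an unadjusted p under 0.05 limma counted 8 of the 9 genes and 17.5% of all. For 6 of the 9 genes every ACKR2-deficient array lay above every wild type array, as for 4.97% of all genes, and the exceptions were Blnk, Jchain and Vpreb1. Without wild type 2-week array 3, limma called 7 of the 9 genes and 4738 genes of all, with Cd79a at 5.78 ± 0.58 (limma adjusted p 5.1e-05) and Blnk not called (limma adjusted p 0.0612). With estimated array weights limma called 8 of the 9 genes and 9197 of all. In both fits, all ACKR2-deficient arrays on the 2-week side were among those that went against their labels. Genotype therefore cannot be told apart there from whatever sets these arrays apart.

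At 10 weeks none of the 9 genes, and 0.0% of all genes, passed between the genotypes by limma with Benjamini-Hochberg adjustment. None of the 9 had an unadjusted p under 0.05, against 7.85% of all. This fit shares 1 estimate of spread over all groups, so its SE also reflects the 2-week arrays. For Jchain the SE was 1.22. Its standard deviations were 0.25 and 0.08 in the wild type and ACKR2-deficient 10-week groups, and 3.30 in the wild type 2-week group. Alternative fits, among them one on the 10-week arrays alone, also called 0 of the 9. Blnk had the largest difference, -1.18 ± 0.78 (limma adjusted p 0.792), and the other 8 genes lay between -0.52 and 0.22. Only Cd79b had groups that did not overlap, as had 14.6% of all genes: its lowest wild type array, at 8.43, was above its highest ACKR2-deficient array, at 8.38. From 2 to 10 weeks in wild type, limma called 0.0% of all genes and none of the 9, with 0 of the 9 and 6.65% of all at an unadjusted p under 0.05. The differences ran from -1.89 ± 1.22 for Jchain to 0.29 ± 0.19 for Vpreb1. Without wild type 2-week array 3 the difference turned positive for Cd79a, Cd79b, Ebf1, Blnk, Ighm and Jchain, at 0.015 to 0.16. The interaction of genotype and week passed for 0.0% of all genes and for none of the 9. It was negative for all 9 genes, from -0.48 ± 0.27 for Vpreb1 to -4.16 ± 1.72 for Jchain, with limma adjusted p-values of 0.424 to 0.533. At an unadjusted p under 0.05 it counted 8 of the 9 and 11.4% of all.

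Further genes of the receptor pathway and of the B lineage were taken from lists. Of 24 measured genes of B cell receptor signalling, 11 fell and 1 rose from 2 to 10 weeks in the ACKR2-deficient label by limma with Benjamini-Hochberg adjustment. Their median difference was -0.68, and over all genes 6.33% fell and 10.5% rose. Rasgrp3, a Ras activator downstream of the receptor, fell by 4.56 ± 0.86 log2 units and Blk fell by 2.92 ± 0.76. Syk, the kinase that binds the phosphorylated Cd79a and Cd79b chains and also acts in mast cells, had -0.46 ± 0.50 and did not pass, nor did Plcg2, a phospholipase, at 0.01 ± 0.50. Of 12 lineage transcription factors, 9 fell and none rose, with a median of -2.89. Among them Spib fell by 4.78 ± 0.84, and the log2 difference was -4.98 ± 0.96 for Ikzf3 and -3.53 ± 0.76 for Pou2af1, the co-activator that binds octamer factors; both passed. On the 4 arrays in the order given above, Spib had 10.32, 10.62, 10.61 and 13.12, and at most 7.90 elsewhere.

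The lists for B cell stages differed in how many of their genes were high on these arrays. In the week comparison of the ACKR2-deficient label, 6.33% of all genes fell and 10.5% rose. Of 15 measured mature B cell markers, 14 fell and none rose, with a median of -3.99, and over the list the mean log2 signal was 10.49, 10.51, 10.57 and 12.68 on the 4 arrays against 7.48 to 7.83 on the others. Ms4a1 had 9.98, 10.08, 10.29 and 13.56 on the 4 arrays and 5.32 to 5.87 on the others. Fcer2a, the low-affinity IgE receptor CD23, fell by 4.89 ± 0.97 and Cr2 fell by 4.45 ± 1.10. Of 13 measured pro-B and pre-B markers, 2 fell and 2 rose, with a median of -0.21. The mean of that list was 8.33, 8.37, 8.30 and 8.28 on the 4 arrays, inside the 7.82 to 8.43 of the others, but its genes differed in both directions. Lef1, a factor of T cells and B cell precursors, had 12.37, 12.44, 12.41 and 8.90 on the 4 arrays and at most 7.56 on the others. It was the only gene of the list for which these were the highest 4 by at least 1 log2 unit. Its difference was -3.80 ± 1.25 (limma adjusted p 0.0624, Benjamini-Hochberg). Il7r, the interleukin 7 receptor of precursors and T cells, named after its values were seen, had -2.75 ± 1.33 and did not pass. Cd93 was low on the 4 arrays, at 7.70, 7.38, 7.51 and 9.44 against 13.00 to 13.22. Igll1, the partner of Vpreb1 in the surrogate light chain, had -0.05 ± 0.15, Vpreb2 0.13 ± 0.21, and the recombinase genes Rag1 and Rag2 -0.21 ± 0.13 and 0.17 ± 0.25, none of which passed.

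The genes of the pro-B and pre-B list that passed were Vpreb3, Dntt, Erg and Cd93. Vpreb3 fell by 2.43 ± 0.71 and had 8.61, 8.64, 8.68 and 11.63 on the 4 arrays. Dntt, the polymerase that adds bases at antigen receptor joints, fell by 1.40 ± 0.40. Its values were 7.80, 7.86 and 7.68 on wild type array 3 and ACKR2-deficient arrays 1 and 2, and 6.88 on ACKR2-deficient array 3, so that Dntt did not share the step of that array. Erg and Cd93, which other marrow cells express too, rose by 2.99 ± 0.60 and 5.00 ± 1.20. The difference between the mature and the precursor lists was not tested.

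**Figure D3:**
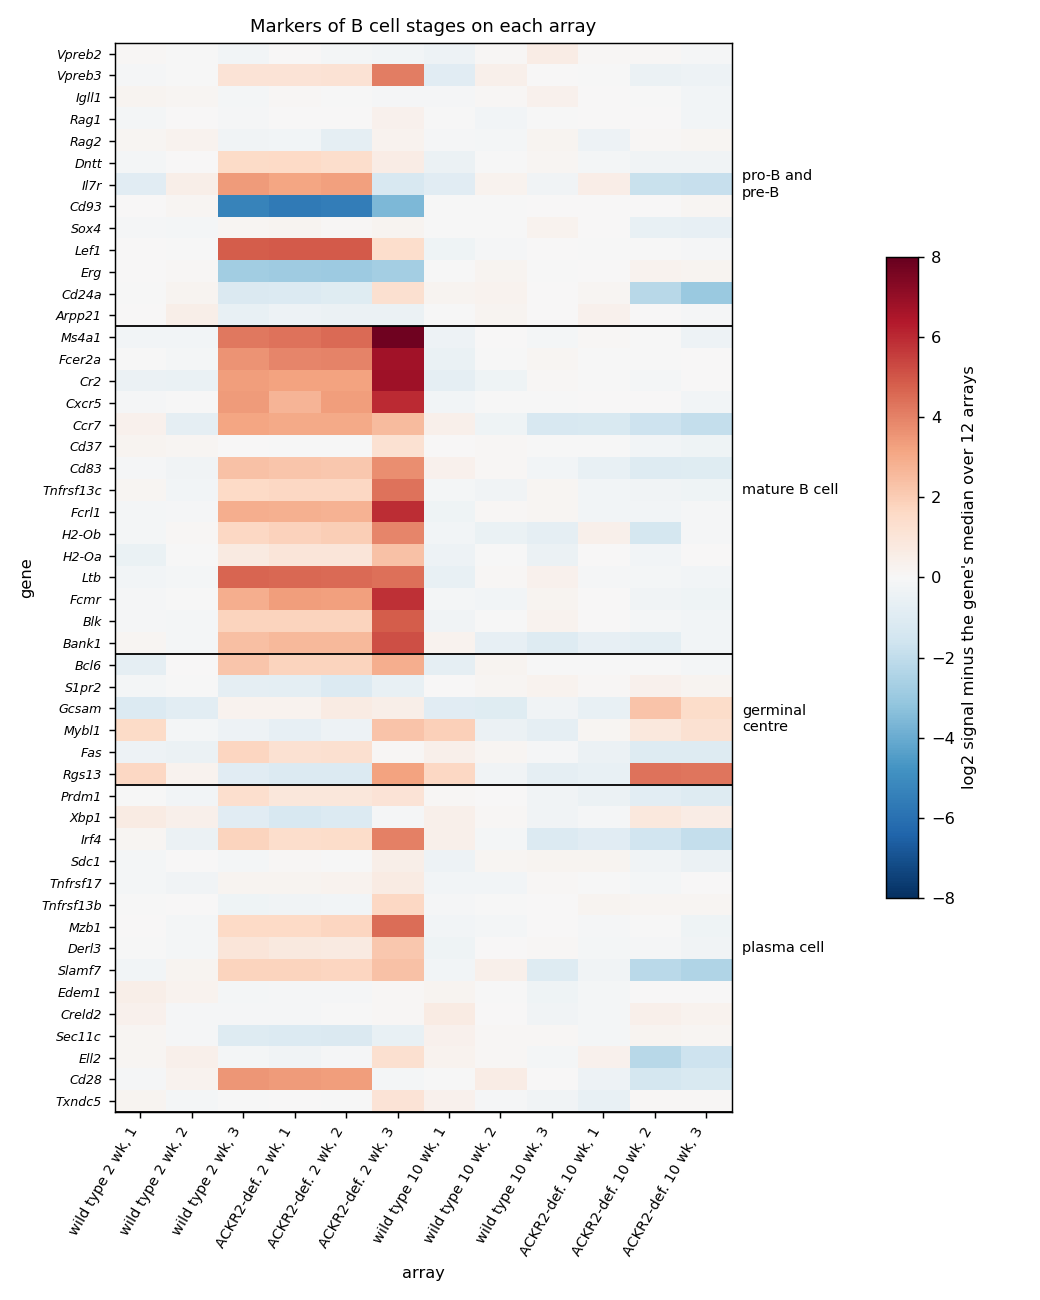
Log2 signal minus the gene's median over the 12 arrays (colour scale) for markers of B cell stages (y axis) on each array (x axis). Red columns for wild type 2-week array 3 and the ACKR2-deficient 2-week arrays run through most mature B cell markers. The pro-B and pre-B markers differ among themselves: Igll1, Vpreb2 and Rag1 stay pale, while Lef1 and Vpreb3 are higher and Cd93 lower on these arrays.

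Of 15 measured plasma cell markers, 5 fell and 1 rose, with a median of -0.49, against 6.33% lower and 10.5% higher over all genes. Irf4, a factor of activated B cells and plasma cells, fell by 3.74 ± 0.76, and Mzb1, a chaperone used in antibody secretion, fell by 2.76 ± 0.69. Prdm1, the factor that drives plasma cell differentiation, fell by 1.76 ± 0.34. Xbp1, the factor of the secretory program, had 1.25 ± 0.45 and did not pass, and Sdc1, the plasma cell surface proteoglycan CD138, had -0.36 ± 0.21 and did not pass either. Of the immunoglobulin constant region genes other than Ighm, Ighg3 and Igha were measured, and both fell, with log2 differences of -4.19 ± 0.61 and -4.09 ± 0.93. Ighg3 had 7.08, 8.40, 8.68 and 10.37 on the 4 arrays and at most 5.24 on the others. Igha had 11.10, 10.86, 10.81 and 12.93, and at most 7.75 on the others. Constant region genes resemble each other, so their probes may be shared and these values are uncertain.

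**Figure D4:**
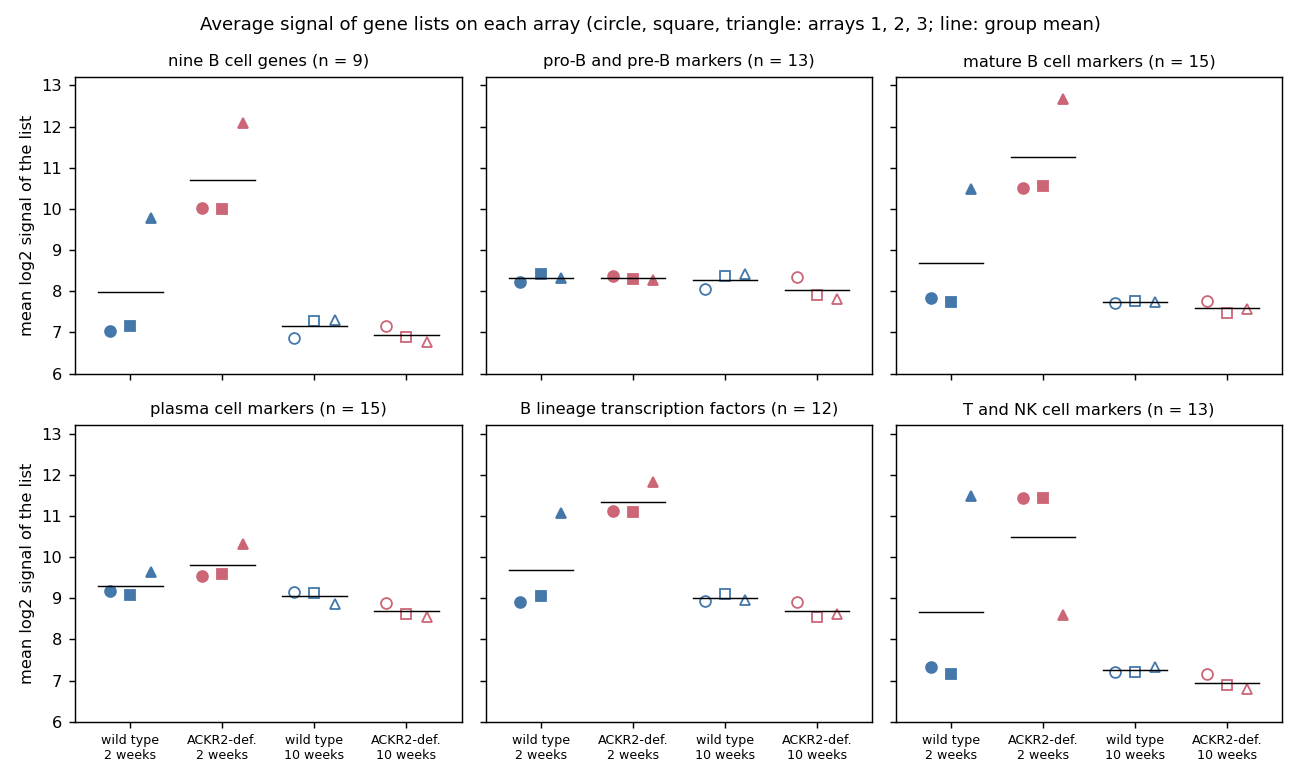
Mean log2 signal of 6 gene lists (y axis) on each array, by group (x axis), with circles, squares and triangles for arrays 1, 2 and 3 and a line at the group mean. The mature B cell list steps up on ACKR2-deficient 2-week array 3 to 12.68, the mean of the pro-B and pre-B list, whose genes differed in both directions, stays between 7.82 and 8.43 on all arrays, and the T and NK list is lower on that array (8.58) than on wild type array 3 and ACKR2-deficient arrays 1 and 2 (11.43 to 11.49).

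The probe sets of Ighm were set side by side, since the rule kept the one with the highest mean, probe set 10402991. Probe set 10402864 had 10.01, 10.09, 10.15 and 11.98 on the 4 arrays in the order above, and probe set 10403069 had 10.02, 10.40, 10.51 and 12.71. Wild type array 3 thus lay within 0.14 log2 units of ACKR2-deficient arrays 1 and 2 by probe set 10402864, but 0.94 and 0.96 below them by probe set 10402991. The difference between the genotypes at 2 weeks was 2.89 ± 0.78 and 4.05 ± 1.27 by the other probe sets, against 2.74 ± 0.53. All of the probe sets missed the threshold there, with a limma adjusted p of 0.225. From 2 to 10 weeks in the ACKR2-deficient label the difference of Ighm was -3.91 ± 0.78 and -4.94 ± 1.27 by these probe sets, and both passed limma's test. Probe set 10403069 varied most among the remaining arrays, from 4.31 to 7.73.

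**Figure D5:**
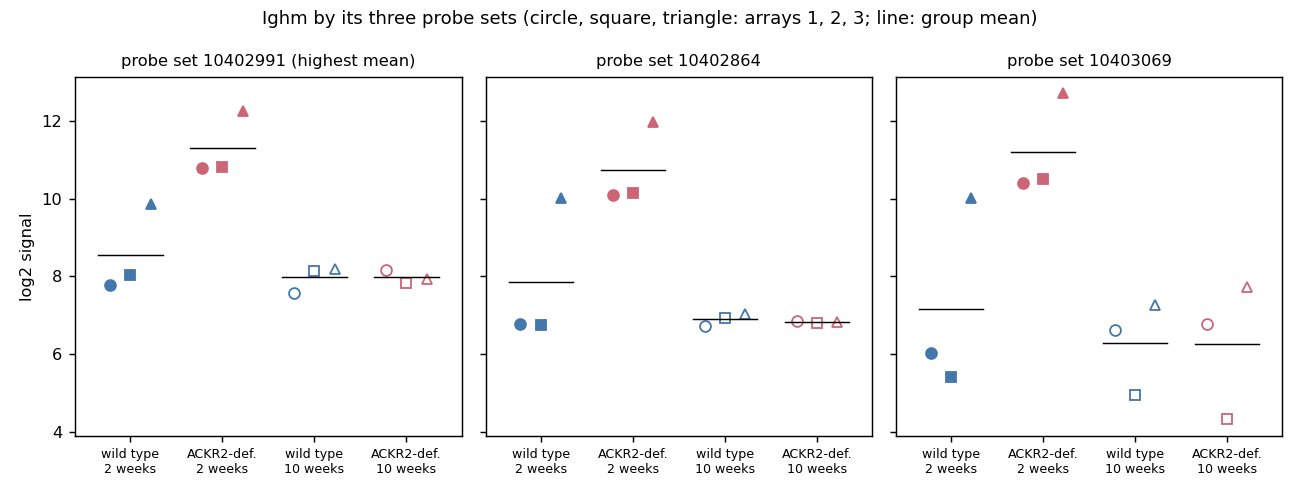
Log2 signal of Ighm (y axis) by each of its 3 probe sets, on every array by group (x axis), with circles, squares and triangles for arrays 1, 2 and 3 and a line at the group mean. Wild type 2-week array 3 lies 0.94 log2 units below the lowest ACKR2-deficient 2-week array by probe set 10402991 and close to it by probe set 10402864.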

How the data were processed

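Gene expression was measured on 12 single-colour arrays, hybridised from 250 ng of total RNA each. Per the submitters' processing notes, the authors used Partek 6.5 and RMA, which subtracts background, sets all arrays to 1 distribution and combines the probes of a probe set; the deposited values are log2 signals. The genome build of the probe sets is not given in the sources used here, and with no detection calls, slides or scan times, signal over background and batches could not be examined. The number of arrays limits the precision. Of 35399 probe sets, 21789 had 1 gene symbol in the platform annotation and 1621 had several, which were not used. The probe set with the highest mean was kept per gene, which left 19938 genes, with no filter on low values.

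A linear model with a mean for each group (limma 3.58.1, R 4.3.3) took in the 12 arrays. It had 8 residual and 2.39 prior degrees of freedom. The code was run on simulated data first. That run is no evidence on how the model performs at the spread of the 2-week arrays. For Jchain the standard deviation was 3.30 in the wild type 2-week group. P-values were adjusted by Benjamini-Hochberg over all genes, with a threshold of 0.05. Tables were made with Python 3.11.15 and pandas 2.3.3. An exact permutation test of 3 against 3 arrays cannot go below 0.1 and was not used.

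The 9 genes and all gene lists were chosen with earlier results of these data known. Besides the 9 genes, the text names the first 6 measured genes of a list, up to 4 others with the lowest p in a comparison, and the 3 genes with the profile nearest to each of the 9, of which some are named. Replicate numbers were checked as pairs. Between wild type 2-week and 10-week arrays the deviations from the group means correlated at 0.166 to 0.359 for the same number. For different numbers of these groups the correlation was at most 0.0232. Between wild type and ACKR2-deficient 10-week arrays, however, different numbers reached 0.287, so a correlation of this size does not by itself mark a pair. Same numbers were treated only as possible pairs between the wild type 2-week and 10-week arrays, and between no other groups. A pairing is not established, because wild type 2-week array 3 differed from the wild type 10-week arrays in its sex-linked genes. Alternatives were other normalizations, array weights, a brightness filter, a prior with an intensity trend, a replicate block and leaving out arrays.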

Additional observations from a re-analysis of the deposited data

Results flagged for a closer look

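The difference between the genotypes for Cd79b had opposite directions at the 2 times of culture by the order of the arrays. At 2 weeks all 3 ACKR2-deficient arrays lay above all 3 wild type arrays, as for 4.97% of all genes. At 10 weeks all 3 lay below, with 8.38 log2 units on the highest ACKR2-deficient and 8.43 on the lowest wild type array. The 10-week groups did not overlap, in either direction, for 14.6% of all genes, and the limma adjusted p of Cd79b there was 0.943. The share of genes with opposite orders at both times was not computed. The difference at 10 weeks minus that at 2 weeks was -2.96 ± 0.89 log2 units, and as an interaction in limma it had an adjusted p of 0.424, so it did not pass the test. The 2-week values rest on the arrays that went against their labels.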

How the results depend on the processing

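Leaving out each array in turn, limma called 0 to 4738 genes and 0 to 7 of the 9 between the genotypes at 2 weeks (1 gene without ACKR2-deficient 2-week array 3), 0 to 129 genes at 10 weeks (129 without ACKR2-deficient 10-week array 1), 0 to 4994 genes and 0 to 8 of the 9 for week in the ACKR2-deficient label (1514 and 1391 genes without its 2-week arrays 1 and 2) and 0 to 3138 genes and 0 to 6 of the 9 for the interaction, of which 3138 and 6 without wild type 2-week array 3. Array weights gave 9197, 9550 and 4136 genes at 2 weeks, for week in the ACKR2-deficient label and for the interaction, with 8 of the 9 at 2 weeks and 7 for the interaction. A brightness filter on the mean over all arrays kept 9969 genes, among them 5 of the 9, and removed the other 4. All 5 were called for week in the ACKR2-deficient label. This is no separate check, because the mean includes the 4 arrays on which these 5 genes were high. Pax5 was kept with a mean of 8.12 log2 units, although it had 6.92 to 7.37 on the other 8 arrays. The share called among all kept genes is not given here. With the replicate number as a block, limma called 0 genes in the other comparisons. For week in the ACKR2-deficient label it called 2897 genes and 8 of the 9, against 3358 genes without the block. The block changed no call among the 9 genes, also not in the wild type arrays alone (0 genes).

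Small differences that no fit called changed sign. Between the genotypes at 10 weeks, array weights gave -0.12 for Ebf1, -0.097 for Ighm and -0.080 for Jchain, the mean of its probe sets -0.023 for Ighm, and probe sets 10402864 and 10403069, an alternative chosen after seeing the data, -0.067 and -0.0027. For week in wild type, array weights gave 0.032 for Ebf1, 0.0005 for Ighm and 0.015 for Jchain. Without the 4 arrays that went against their labels the same comparison gave 0.055 for Cd79a, 0.097 for Cd79b, 0.071 for Ebf1, 0.16 for Blnk, 0.064 for Ighm and 0.015 for Jchain, and no 2-week ACKR2-deficient comparison could be fitted. Leaving out 1 array, it ran from -2.34 to 0.055 for Cd79a, -1.29 to 0.097 for Cd79b, -1.52 to 0.071 for Ebf1, -0.60 to 0.16 for Blnk, -0.98 to 0.064 for Ighm and -2.89 to 0.015 for Jchain, and at 10 weeks the genotype difference ran from -0.11 to 0.13 for Ebf1, -0.19 to 0.11 for Ighm and -0.30 to 0.029 for Cd22. The cause of these changes was not tested.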

Other observations

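Beside Blnk, other genes set ACKR2-deficient 10-week arrays 2 and 3 apart from array 1. Cd81, a partner of the B cell co-receptor that many other cells express, had 12.27 on array 1, 7.75 on array 2 and 8.23 on array 3. Wild type 10-week arrays had 11.79 to 12.70 for Cd81. Csf1r, the receptor of macrophage growth factor, had 9.56 on array 1 and 6.82 and 6.62 on arrays 2 and 3. Rgs13, a signalling regulator listed here for germinal centre B cells and also known in mast cells, had 5.32 on array 1 and 10.30 and 10.24 on arrays 2 and 3, and 9.15 on ACKR2-deficient 2-week array 3. None of these genes differed between the genotypes at 10 weeks by limma with Benjamini-Hochberg adjustment (adjusted p 0.536 for Cd81, 0.543 for Csf1r and 0.772 for Rgs13).

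For week in the ACKR2-deficient label, the remaining lists had these counts by limma, with 6.33% of all genes lower and 10.5% higher. Of 6 measured germinal centre genes 2 fell and 1 rose, and of 8 marginal zone and B-1 genes 3 fell and 1 rose. Of 7 plasmacytoid dendritic cell genes 5 fell, and of 12 monocyte and macrophage genes 4 fell and 1 rose. Of 13 T and NK cell genes 3 fell, although all 13 had differences below 0. ACKR2-deficient 2-week array 3 was lower than arrays 1 and 2 in the mean of this list, but not for the NK cell receptor genes Klrb1c (7.60, 7.60 and 7.89 on arrays 1, 2 and 3) and Ncr1 (6.86, 6.84 and 9.26), the latter named after its values were seen. Cd2 had 12.23, 12.27 and 11.62. Of 11 mast cell genes 9 rose, and of 4 sex-linked genes 3 Y-linked genes fell and Xist rose.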
